A study of Mus musculus with 6 samples.

Results

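The miR-181 family was followed across the 3 maturation zones of the mouse growth plate: mmu-miR-181a, mmu-miR-181b, mmu-miR-181c and mmu-miR-181d, together with mmu-miR-181a-1*, the star (passenger) arm of the miR-181a-1 hairpin. The species prefix is left out from here on. Its members were chosen by name, as the 5 array names given here, among 690 mouse miRNAs on the array. They are reported by 10 of the 1928 probes. The tissue was femoral growth plate cartilage of C57BL/6 mice aged 12 days, separated into zones by microdissection, and the labels name no treatment or allele. The groups were the proliferative zone (arrays 13 and 16), the prehypertrophic zone (arrays 14 and 17) and the hypertrophic zone (arrays 15 and 18), numbered as in the sample titles. Each array received 100 ng of Cy3-labelled total RNA from a pool of 5 growth plates. The labels do not say whether zones on different arrays came from the same animals, so the p-values below measure only the spread between these 6 samples. The comparison asked how miRNA levels differ as growth plate chondrocytes mature.

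Chondrocytes of the growth plate divide in the proliferative zone, leave the cell cycle in the prehypertrophic zone and enlarge in the hypertrophic zone, which borders invading vessels and forming bone. A miRNA is cut from a hairpin transcript and guides silencing of mRNAs that pair with its seed, the bases near its 5′ end. The guide arm is usually retained and the star arm usually degraded. The miR-181 family is known best for its part in lymphocyte development and T cell receptor sensitivity. Mouse miR-181a and miR-181b are each encoded at 2 loci, and miR-181c and miR-181d at 1 locus.

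The mature sequences are shown because the probes read members that are nearly identical in sequence. They are from RefSeq (GRCm38.p6), written 5′ to 3′, with the seed (bases 2 to 8) in capitals.
miR-181a: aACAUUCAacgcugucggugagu
miR-181b: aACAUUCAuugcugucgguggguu
miR-181c: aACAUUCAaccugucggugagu
miR-181d: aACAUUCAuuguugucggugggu
miR-181a-1*: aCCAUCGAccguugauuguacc

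All 5 names matched a RefSeq mature sequence. The 4 guide arms share the seed ACAUUCA, and they are the only 4 of 1679 mouse mature names in the RefSeq table that carry it. Outside the seed they differ little. Counted from 1 at the 5′ end, miR-181b differs from miR-181a by A9U, C10U and A21G, and is 1 base longer. miR-181d differs from miR-181b by C12U alone and is 1 base shorter. miR-181c is miR-181a without the base at position 11. The star arm has another seed, CCAUCGA, which 1 further mature name in the table carries, miR-181c-3p. How much of a probe's signal came from a near-identical member was not measured here.

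The hairpins lie in pairs. Mir181a-1 (chr1:137966455-137966541, plus strand, GRCm38.p6) neighbours Mir181b-1 (chr1:137966639-137966718, plus strand), and no other RefSeq gene overlaps them. Mir181a-2 (chr2:38852735-38852810, plus strand) neighbours Mir181b-2 (chr2:38853830-38853918, plus strand), both within the bounds of the protein-coding gene Nr6a1 and of the long noncoding RNA Nr6a1os. Mir181c and Mir181d neighbour each other on chromosome 8, minus strand, overlapping no other RefSeq gene. Mature miR-181a and miR-181b therefore cannot be assigned to the chromosome 1 or the chromosome 2 pair, but the star arms can. The Mir181a-1 hairpin is shown with its arms in capitals because both of its products are members, miR-181a first and miR-181a-1* second.
Mir181a-1: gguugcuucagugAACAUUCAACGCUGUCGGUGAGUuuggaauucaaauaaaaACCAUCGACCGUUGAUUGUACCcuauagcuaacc

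Signals are background-subtracted spot brightness on a linear scale, averaged over the unflagged spots of a probe. The scanner software marks spots that are well above background, and a probe was called so when over 50% of its unflagged spots were. Arrays were made comparable by dividing by the 75th percentile of the 342 probes called so on every array. Scaled signals under a floor of 12.7 were set to that floor, which is 3.66 on the log2 scale. Each miRNA was represented by its brighter probe. Tests covered the 226 miRNAs that both arrays of some zone measured well above background, with limma and Benjamini-Hochberg adjustment over all 226, and a threshold of 0.05. Levels of different miRNAs were not compared, since probes differ in brightness per molecule.

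The share of spots well above background was 24.2% to 27.9% of 13800 per array, and no spot was saturated. The cartilage miRNAs miR-140, miR-140*, miR-455 and miR-455* were well above background on all 6 arrays. Their summed scaled signal was 6461 to 10367 in the proliferative, 6824 to 6922 in the prehypertrophic and 3910 to 4912 in the hypertrophic zone. All arrays shared a slide and scan day. Slide row 1 held the 2 hypertrophic arrays and proliferative array 13, and row 2 the 2 prehypertrophic arrays and proliferative array 16, so that a row effect on the hypertrophic minus prehypertrophic differences can be estimated only through the proliferative arrays. With slide row as a block these differences were 1.44 log2 units for miR-181b and 1.04 for miR-181d, against 1.04 and 0.61 without it, and none was called. For miR-181a and miR-181a-1* both proliferative arrays lay at the floor, so the block could not change their differences. Its hypertrophic minus proliferative fit repeated that without proliferative array 16 (2.02 log2 units for miR-181b in both). Its prehypertrophic minus proliferative fit repeated that without array 13 (0.58 in both). The row block is therefore no separate check, although the alternatives counted below include it.

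Detection separated the members. miR-181b and miR-181d were well above background on all 6 arrays, with 113 of 113 and 117 of 117 unflagged spots flagged as such. miR-181a and miR-181a-1* were well above background on the 4 prehypertrophic and hypertrophic arrays and on no proliferative array. miR-181c was well above background on no array, with 0 of 116 spots. Of the 5 members, 4 were therefore tested. miR-181a and miR-181a-1* passed the filter only through the zones where they were bright. The counts and member medians below that include them therefore describe them and support nothing further.

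**Figure D1:**
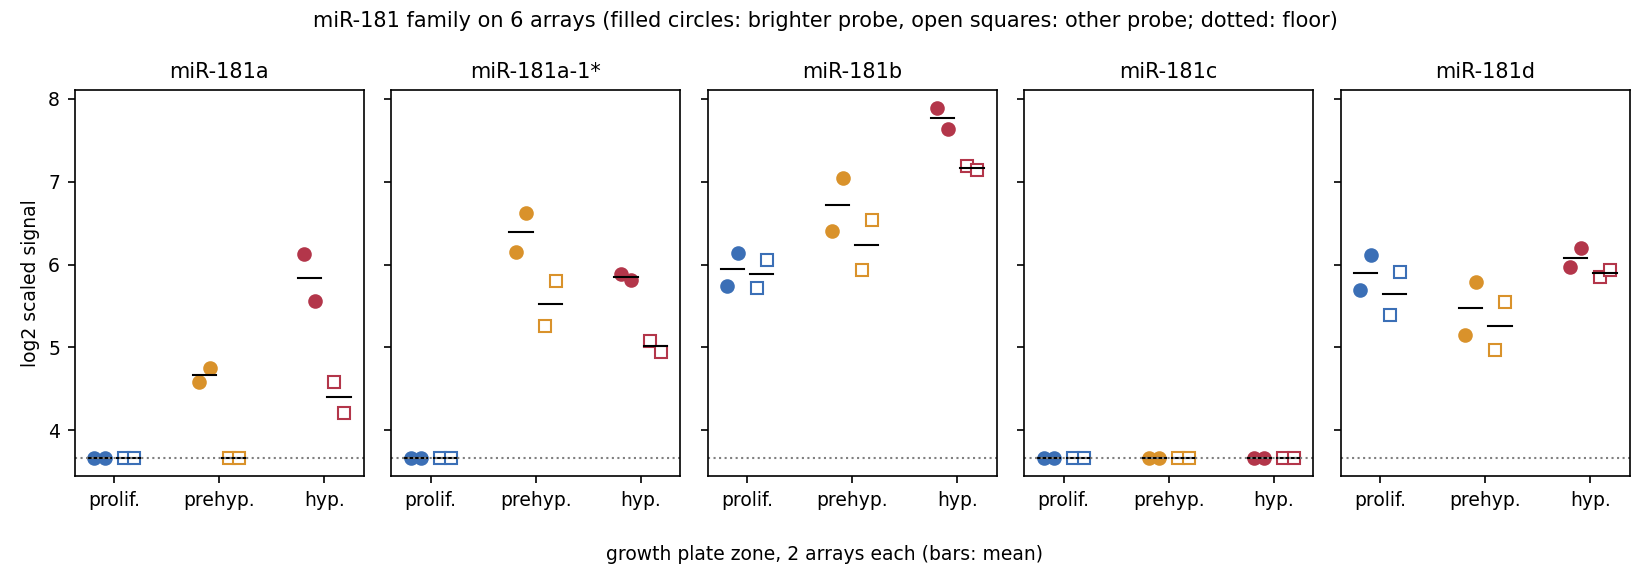
Log2 scaled signal of the 5 miR-181 miRNAs by growth plate zone, 1 point per array and probe (filled circles, brighter probe; open squares, other probe), with bars at zone means and the floor of 3.66 dotted. miR-181a and miR-181b are highest on the hypertrophic arrays, miR-181a-1* on the prehypertrophic arrays, miR-181d overlaps between the outer zones and miR-181c lies at the floor throughout.

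miR-181a, the guide arm made at both the chromosome 1 and the chromosome 2 locus, was brightest in the hypertrophic zone. Its brighter probe, A_54_P1123, gave scaled signals of 5.93 and 2.63 on proliferative arrays 13 and 16, 23.9 and 27.0 on prehypertrophic arrays 14 and 17, and 69.6 and 47.2 on hypertrophic arrays 15 and 18. The zones did not overlap, and hypertrophic array 15 was the brightest. Over all member probes well above background, spots on 1 array varied by 2.25% to 14.6% (SD as a share of the mean). On the log2 scaled scale it averaged 5.84 ± 0.40 in the hypertrophic zone, against the floor of 3.66 on both proliferative arrays (SD, n = 2). It rose to at least 3.89-fold the proliferative level in the hypertrophic zone (fitted log2 fold change 2.18, SE 0.27, limma adjusted p = 6.27e-04). In such dissected tissue a change in the share of a cell type and a change in RNA per cell cannot be told apart.

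Between neighbouring zones miR-181a did not pass. It averaged 4.67 ± 0.12 log2 units in the prehypertrophic zone (SD, n = 2), at least 1.73-fold above the proliferative zone (limma adjusted p = 0.105). The hypertrophic zone was 1.17 log2 units above the prehypertrophic zone (SE 0.27, limma adjusted p = 0.0701). The order of its levels was thus proliferative, prehypertrophic, hypertrophic, with only the outer zones separated by the test. Its other probe, A_54_P1122, was well above background on the hypertrophic arrays alone, with log2 scaled signals of 4.59 and 4.21 there, against the floor on the other 4 arrays. In a fit of all 446 tested probes it was at least 1.43-fold higher in the hypertrophic than in the proliferative zone and did not pass (limma adjusted p = 0.097, where 4.93% of probes were called higher). The floor set the spread of the proliferative pair to 0 for miR-181a and miR-181a-1*, so their p-values leave that spread unmeasured.

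miR-181a-1*, processed from the chromosome 1 hairpin alone, was brightest in the prehypertrophic zone. Its brighter probe, A_54_P3517, gave scaled signals of 3.46 and 5.82 on proliferative arrays 13 and 16, 71.2 and 98.7 on prehypertrophic arrays 14 and 17, and 59.4 and 56.2 on hypertrophic arrays 15 and 18. Both prehypertrophic arrays lay above both hypertrophic arrays. It averaged 6.39 ± 0.33 log2 units in the prehypertrophic zone and lay at the floor on both proliferative arrays, so that it rose at least 5.69-fold (SD, n = 2; fitted log2 fold change 2.73, SE 0.26, limma adjusted p = 2.24e-04). At the floor used, this was the largest fitted rise among the 226 miRNAs in that contrast. Its size, on which that rank rests, was set by the floor and was 1.73 log2 units with 2 times the floor.

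In the hypertrophic zone miR-181a-1* averaged 5.85 ± 0.06 log2 units (SD, n = 2) and was at least 3.92-fold higher than in the proliferative zone (fitted log2 fold change 2.19, SE 0.26, limma adjusted p = 6.27e-04). Its hypertrophic level differed from the prehypertrophic level by -0.54 log2 units (95% interval -1.12 to 0.05, limma adjusted p = 0.279). The other probe, A_54_P3518, showed the same order, with scaled signals of 0.613 and 0.254 on the proliferative, 38.1 and 56.0 on the prehypertrophic and 33.8 and 30.9 on the hypertrophic arrays. Its rise over the proliferative zone passed among all probes in the prehypertrophic zone (limma adjusted p = 0.00278, where 2.24% of probes were called higher) and in the hypertrophic zone (limma adjusted p = 0.0127). The matching arm of the chromosome 2 hairpin, miR-181a-2*, is not a member and was looked up after the values were seen. It differs from miR-181a-1* by U5C and U16C, and none of the 117 spots of its 4 probes was well above background, with probe signals of -4.85 to -0.146.

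miR-181b, the neighbour of miR-181a at both loci, was measured on every array and needs no bound. Its brighter probe, A_54_P2651, gave scaled signals of 53.6 and 70.5 on proliferative arrays 13 and 16, 84.4 and 132 on prehypertrophic arrays 14 and 17, and 237 and 199 on hypertrophic arrays 15 and 18. No zone overlapped another. It rose 3.53-fold in the hypertrophic zone relative to the proliferative zone (log2 fold change 1.82, SE 0.30, limma adjusted p = 0.00271), at 7.76 ± 0.17 against 5.94 ± 0.28 log2 units (SD, n = 2 each).

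At the single steps miR-181b did not pass either. The prehypertrophic zone was 0.78 log2 units above the proliferative zone (SE 0.30, limma adjusted p = 0.265), and the hypertrophic zone was 1.04 log2 units above the prehypertrophic zone (SE 0.30, limma adjusted p = 0.143). Its order was that of miR-181a. The other probe, A_54_P2650, rose by 1.27 log2 units between the outer zones (SE 0.29, limma adjusted p = 0.0216 among all probes). The ratio of the brighter to the other probe within an array was 1.02 and 1.06 in the proliferative zone, 1.38 and 1.42 in the prehypertrophic zone and 1.63 and 1.42 in the hypertrophic zone. The proliferative ratios lay below those of all other arrays, a difference that was not tested. The same ratio for miR-181d stayed between 1.08 and 1.23 on all 6 arrays.

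miR-181d, from the chromosome 8 pair, had no call in any contrast. Its brighter probe, A_54_P2983, gave scaled signals of 51.6 and 69.3 on proliferative arrays 13 and 16, 35.6 and 55.3 on prehypertrophic arrays 14 and 17, and 62.6 and 73.5 on hypertrophic arrays 15 and 18. The outer zones overlapped. The hypertrophic zone differed from the proliferative zone by 0.18 log2 units, with a 95% interval of -0.48 to 0.85 (limma adjusted p = 0.795). The prehypertrophic zone differed from the proliferative zone by -0.43 log2 units (interval -1.10 to 0.23, limma adjusted p = 0.657), and the hypertrophic from the prehypertrophic zone by 0.61 log2 units (interval -0.05 to 1.28, limma adjusted p = 0.279). Its other probe, A_54_P2982, gave 0.25, -0.39 and 0.63 log2 units for the same contrasts, with no call. Between the hypertrophic and prehypertrophic zones 0.897% of all probes were called higher, and no probe of a member was.

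miR-181c, the other product of the chromosome 8 pair, was not detectable at the signal these arrays gave. The brighter of its probes, A_54_P1484, had scaled signals of 0.441 and -1.90 on the proliferative, 1.35 and 1.19 on the prehypertrophic and 4.05 and 2.21 on the hypertrophic arrays. On hypertrophic array 15 the unscaled signal was 5.35, with an SD over spots of 2.55. The authors' deposited table lists miR-181c on all 6 arrays at the value it gives to signals set to 1. The miR-181c probes were not well above background on the arrays where miR-181a, 1 base longer, was so.

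**Figure D2:**
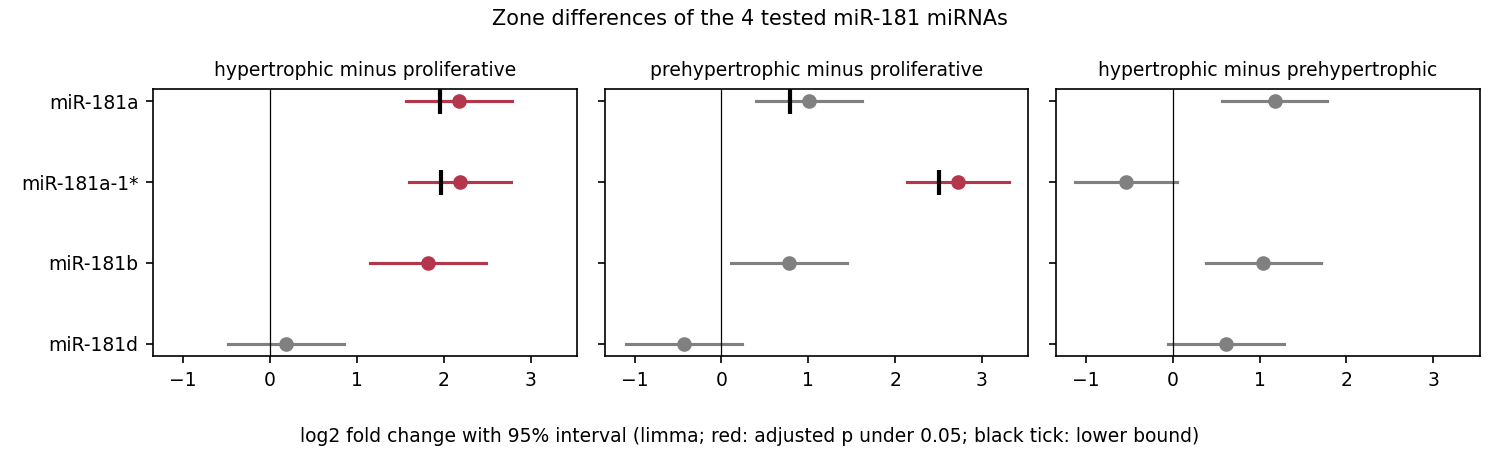
Log2 fold changes between zones for the 4 tested miR-181 miRNAs, with unadjusted 95% intervals from limma; red marks an adjusted p under 0.05 and black ticks mark lower bounds where the proliferative arrays lay at the floor. Between the outer zones miR-181a, miR-181a-1* and miR-181b were called higher, at the step from proliferative to prehypertrophic miR-181a-1* alone, and at the next step none.

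In the hypertrophic zone 3 of the 5 members were called higher than in the proliferative zone, 1 was not called and 1 was not tested, where 5.75% of all tested miRNAs were called higher and 8.85% lower. For these 3, both hypertrophic arrays lay above both proliferative arrays, as they did for 19.9% of all tested miRNAs, with 27% the other way round. The median log2 fold change of the 4 tested members was 2.0, or 1.89 with the bounds in place of the fitted values, beside -0.002 over all 226. The member medians include miR-181a and miR-181a-1*, which the filter admitted only through their bright zones, and so are descriptive. In the prehypertrophic zone 1 member, miR-181a-1*, was called higher than in the proliferative zone, where 2.21% of all tested miRNAs were, and the member median was 0.89 (0.78 at the bounds) beside -0.14 over all. miR-181a, miR-181a-1* and miR-181b had both prehypertrophic arrays above both proliferative arrays, as did 11.9% of all, with 24.3% the other way round. From the prehypertrophic to the hypertrophic zone limma called 0 members, where 1.33% of all tested miRNAs were called. Its unadjusted p was under 0.05 for 2 members, both higher, and for 33 of the 226 tested miRNAs in either direction. Both hypertrophic arrays lay above both prehypertrophic arrays for miR-181a, miR-181b and miR-181d, and below for miR-181a-1*, while 34.1% of all tested miRNAs lay above and 32.7% below. These contrasts share arrays.

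Array numbers 13 to 15 and 16 to 18 form runs with 1 array of each zone. Within these runs the hypertrophic minus proliferative difference was 2.46 and 1.90 log2 units for miR-181a, 2.23 and 2.15 for miR-181a-1*, 2.14 and 1.5 for miR-181b and 0.28 and 0.08 for miR-181d. The prehypertrophic minus proliferative difference of miR-181a-1* was 2.49 and 2.96. Leaving out arrays bore on the calls. Without either hypertrophic array, which left 1 array in that zone, some or all member calls between the outer zones were lost. So were most calls over all tested miRNAs, so that the loss is not particular to the members. Without hypertrophic array 15 the hypertrophic minus proliferative log2 fold changes were 1.90 for miR-181a, 2.15 for miR-181a-1* and 1.70 for miR-181b. Without hypertrophic array 18 they were 2.46, 2.23 and 1.94. The prehypertrophic minus proliferative call of miR-181a-1* was also lost without either hypertrophic array, with its log2 fold change unchanged at 2.73. These arrays enter that contrast only through the shared spread. The sizes were smaller with normexp background correction, which here added an offset of 50 to every signal. The hypertrophic minus proliferative log2 fold changes were then 0.65 for miR-181a, 0.63 for miR-181a-1* and 1.15 for miR-181b, all still called. Adding a constant shrinks the ratios of dim signals, and its part in these sizes was not tested.

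Differences between members on the same array varied with the zone. The log2 signal of miR-181a-1* minus that of miR-181a was 1.57 and 1.87 log2 units in the prehypertrophic zone but 0.25 and -0.23 in the hypertrophic zone, while both lay at the floor in the proliferative zone. From the prehypertrophic to the hypertrophic zone the change of miR-181a-1* was 1.71 log2 units below that of miR-181a (exact permutation p = 0.333, two-sided, n = 2 each). miR-181d minus miR-181b was -1.92 and -1.44 log2 units in the hypertrophic zone, against -0.06 and -0.03 in the proliferative zone. The hypertrophic minus proliferative change of miR-181d was thus 1.64 log2 units below that of miR-181b (exact permutation p = 0.333, two-sided, n = 2 each). The smallest p that 2 arrays against 2 can give is 0.333, so the test cannot reach the threshold. It gave this p in 5 of 6 such comparisons and 1 for the hypertrophic minus proliferative change of miR-181a-1* against miR-181a, which differed by 0.01 log2 units with both proliferative values at the floor.

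**Figure D3:**
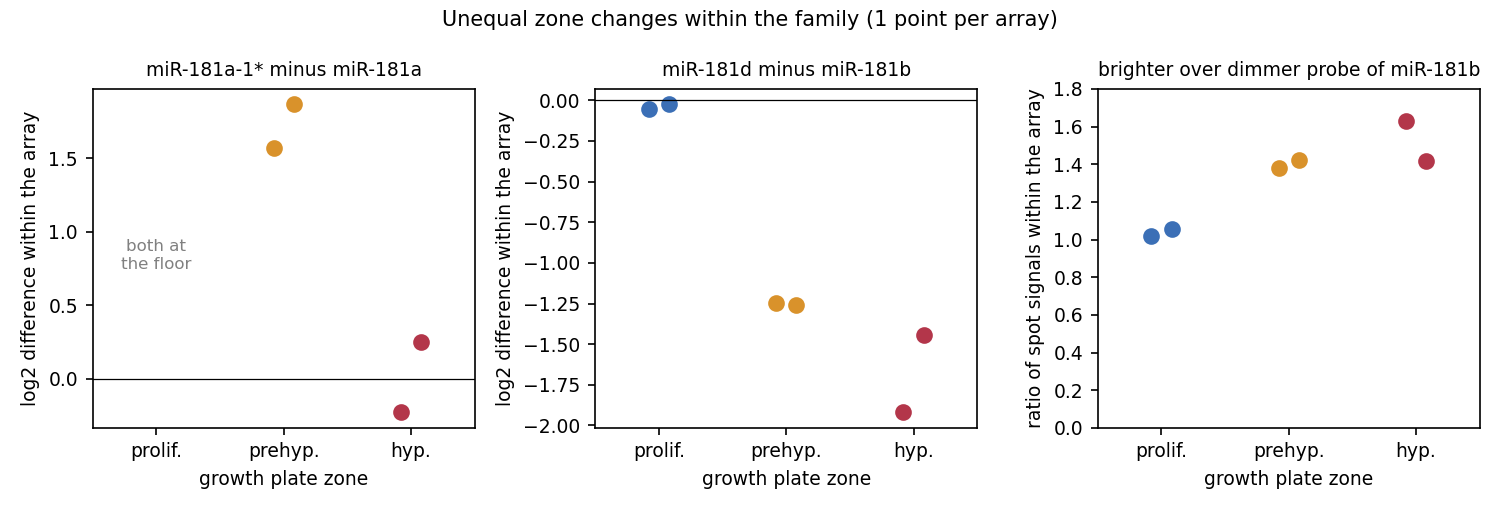
Within-array differences by zone, 1 point per array: log2 signal of miR-181a-1* minus miR-181a (left) and of miR-181d minus miR-181b (middle), and the ratio of the brighter to the other miR-181b probe (right). The prehypertrophic points stand apart from the hypertrophic points on the left, and the proliferative points from all others in the middle and right panels.

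Likeness of profiles was measured as the root mean square difference of log2 scaled signals over the 6 arrays, after each miRNA's own mean was subtracted. All values share the same arrays, scaling and floor. Since miR-181a and miR-181a-1* lay at the floor on both proliferative arrays, their distances depend on the floor chosen. miR-181a and miR-181b were 0.25 log2 units apart at the floor used, but 0.39 apart with 2 times and 0.64 with 0.5 times that floor. Over the 4 prehypertrophic and hypertrophic arrays, where both were above the floor, they were 0.21 apart, and 2 of the 222 tested miRNAs outside the family were nearer to miR-181a than miR-181b was. These settings were added after the values were seen. At the floor used, the nearest outsiders to miR-181a were miR-21 (0.36), the endothelial miR-126-3p (0.42) and miR-22 (0.46), and those to miR-181b were miR-690 (0.32), miR-126-3p (0.41) and miR-2132 (0.41). With 2 times the floor 63 outsiders were nearer to miR-181a than miR-22, and 73 over the 4 prehypertrophic and hypertrophic arrays. With 0.5 times the floor 8 were nearer to miR-181a than miR-126-3p, and 3 than miR-21. The place of miR-126-3p beside miR-181b depended on the floor too. Their distance was 0.53 with 2 times and 0.70 with 0.5 times the floor, where 10 and 54 outsiders were nearer to miR-181b. Over the 4 prehypertrophic and hypertrophic arrays 49 were nearer. The distances of miR-690 and miR-2132 from miR-181b were the same at all 3 floors. miR-181a-1* lay 0.82 from miR-181a, its partner on the hairpin, and 0.81 to 0.88 under the other settings. The nearest outsiders to miR-181a-1* at the floor used were miR-503 (0.33) and miR-322 (0.39), which are made from one cluster on the X chromosome, and miR-22 (0.59). With 0.5 times the floor these distances were 0.78, 0.70 and 1.02. Over the 4 arrays off the floor, 32, 122 and 104 of 222 outsiders were nearer to miR-181a-1* than miR-503, miR-322 and miR-22. miR-503 had log2 fold changes of 2.0 and 1.70 in the prehypertrophic and hypertrophic zones relative to the proliferative zone, and miR-322 of 2.10 and 2.30. miR-181d was 0.71 from miR-181b, and 0.07 each from miR-705, miR-193* and miR-1935, none of which was called in any contrast. Over the 4 prehypertrophic and hypertrophic arrays miR-181d was 0.27 from miR-181b. With 2 times the floor miR-193* was 0.30 from miR-181d, and 54 outsiders were nearer.

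Blood and vessel miRNAs also differed between the zones. Of 8 blood and marrow miRNAs, 1 per proliferative, 1 or 2 per prehypertrophic and 2 or 3 per hypertrophic array were well above background. Their summed scaled signal was 27.0 to 42.8 in the proliferative, 45.2 to 47.8 in the prehypertrophic and 266 to 290 in the hypertrophic zone. The red cell miRNA miR-451 had scaled signals of 254 and 226 on the hypertrophic arrays, against 13.8 and 9.77 on proliferative arrays 13 and 16, where array 16 was not well above background and was set to the floor (limma adjusted p = 1.91e-06). miR-223 was well above background on 2 hypertrophic arrays, 1 prehypertrophic array and 0 proliferative arrays, and did not pass between the outer zones (limma adjusted p = 0.0636). miR-486 was so on 1 hypertrophic and 1 proliferative array and was not tested. In contrast, miR-144, miR-142-3p, miR-142-5p, miR-150 and miR-155 were not well above background anywhere. Of the endothelial arms, only miR-126-3p passed background, on both hypertrophic arrays, with a summed signal for both arms of 34.7 to 47.2 there against 0 in the proliferative zone and 0 in the prehypertrophic zone, where negative signals were set to 0. miR-126-3p was called higher in the hypertrophic than in the proliferative zone (limma adjusted p = 0.00221) and the prehypertrophic zone (limma adjusted p = 0.00522). It lay at the floor in both of those zones, so these p-values leave its spread there unmeasured. None of 4 skeletal muscle miRNAs was well above background on any array. The cartilage miRNAs miR-140, miR-140* and miR-455 had hypertrophic minus proliferative differences of -0.76, -0.98 and -0.78 log2 units and miR-455* of 0.37, none of which passed (limma adjusted p = 0.138, 0.0565, 0.0592 and 0.484). The part of other cell types and of this cartilage shift in the hypertrophic values of miR-181a, miR-181a-1* and miR-181b was not tested. The endothelial sum of 0 in the prehypertrophic zone came from arms whose negative signals were set to 0, and cannot show that vessel cells were absent. The part of other cell types in the prehypertrophic values of miR-181a-1* was not tested either. miR-451 had scaled signals of 28.6 and 26.7 in the prehypertrophic zone, beside the proliferative values above. It did not pass between the prehypertrophic and proliferative zones (limma adjusted p = 0.0553, with 1 of the 2 proliferative arrays above background). Between the hypertrophic and prehypertrophic zones miR-451 was called higher (log2 fold change 3.12, limma adjusted p = 3.36e-05).

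**Figure D4:**
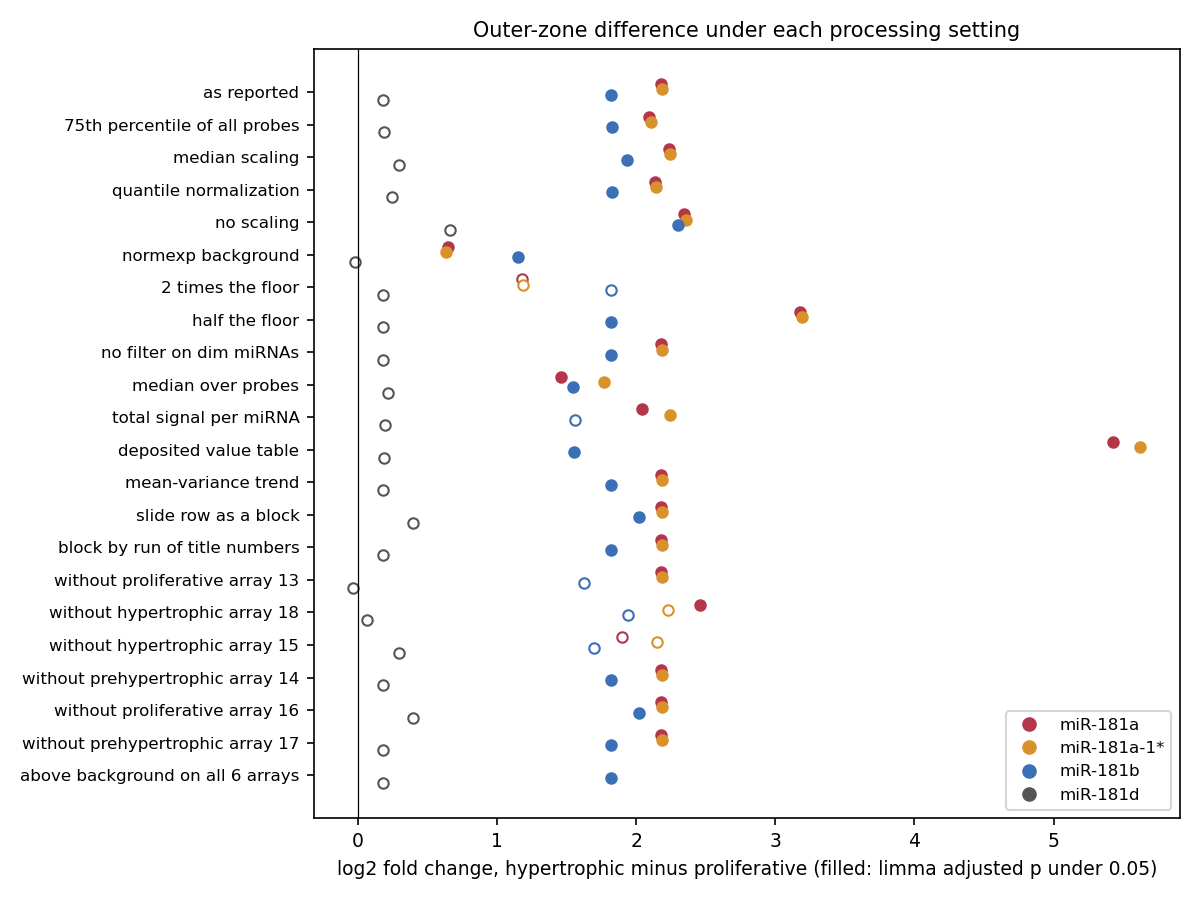
Log2 fold change between the hypertrophic and the proliferative zone for the 4 tested miR-181 miRNAs under each processing setting; filled points had a limma adjusted p under 0.05. miR-181a, miR-181a-1* and miR-181b stay above 0 in every setting shown that could test them, while miR-181d lies between -0.03 and 0.66, and the sizes of miR-181a and miR-181a-1* vary most with the floor, the background correction and the deposited table.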

How the data were processed

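The deposited intensity per spot is background-subtracted brightness on a linear scale from Feature Extraction 10.7.3.1, per the file headers. The authors also deposited a table of log2 values. Each column matched the logged total gene signal, values under 1 being raised to 1, up to a constant per array, within 1.28e-06. Control spots and 384 to 515 outlier spots per array were dropped. The model had 1 mean per zone over the 6 arrays (limma 3.58.1, R 4.3.3, 3 residual and 7.19 prior degrees of freedom). A bound compares the brighter zone's mean log2 signal with a limit for each dimmer array: the highest among its probe signal, the floor and that array's dimmest signal well above background. The 5 members and every probe of them were always named, with the 3 miRNAs outside the family nearest in profile to each tested member. The members, lists and alternatives were chosen with earlier results of these data known. Differences between the runs of title numbers correlated across the 226 miRNAs at 0.25 to 0.73 between zones. No label calls a run a batch, so it was an alternative only. The files hold no mean spot signal, so the normexp alternative used the median signal, with an offset of 50. The number of arrays limits the precision.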

Additional observations from a re-analysis of the deposited data

How the results depend on the processing

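The directions of miR-181a, miR-181a-1* and miR-181b between zones held under all alternatives that could test them. The call between the outer zones held in 18 of 20 for miR-181a, 17 of 20 for miR-181a-1* and 16 of 21 for miR-181b (highest limma adjusted p = 0.113, 0.116 and 0.181), and that of miR-181a-1* at the first step (prehypertrophic minus proliferative) in 17 of 20. Outer-zone log2 fold changes spanned 0.65 to 5.42 for miR-181a, 0.63 to 5.62 for miR-181a-1* (both lowest with normexp and highest with the deposited value table) and 1.15 to 2.30 for miR-181b (normexp and no scaling). With 2 times the floor, 0 members were called in either contrast with the proliferative zone. Of all 226 miRNAs, 8 were then called between the outer zones and 0 at the first step. The hypertrophic minus proliferative log2 fold changes were then 1.18 for miR-181a, 1.19 for miR-181a-1* and 1.82 for miR-181b (limma adjusted p = 0.0898, 0.075 and 0.0777), and the first step of miR-181a-1* was 1.73 (adjusted p = 0.101). The floor sets these sizes for miR-181a and miR-181a-1*. The size of miR-181b was the same as at the floor used. Its adjusted p moved only through the spread shared over all miRNAs and the Benjamini-Hochberg adjustment. With 0.5 times the floor and with the deposited value table, 2 members were called at the first step, where miR-181a had log2 fold changes of 2.01 and 4.22. Of all 226 miRNAs, 8 and 10 were called there under these 2 settings. Restricting the test to miRNAs above background on all 6 arrays left miR-181b and miR-181d, with 1 call between the outer zones and 0 at the first step. Of the 186 miRNAs tested in that way, 28 and 3 were called. With the total signal per miRNA, the change of miR-181b was 1.56 (adjusted p = 0.0543). Over the arrays left out in turn, each leaving 1 array in a zone, the calls of members and of all miRNAs both varied. The outer-zone log2 fold changes ran from 1.90 to 2.46 for miR-181a, 2.15 to 2.23 for miR-181a-1*, 1.62 to 2.02 for miR-181b and -0.03 to 0.40 for miR-181d, and the first step of miR-181a-1* from 2.49 to 2.96. The call of miR-181b was lost without proliferative array 13 (adjusted p = 0.0648). The small outer-zone difference of miR-181d changed sign without that array (-0.031) and with normexp background correction (-0.020), where the cause was not tested. Without scaling, the all-miRNA median lay 0.46 log2 units higher between the outer zones, where miR-181d had 0.66. Over all 226 miRNAs the outer-zone calls numbered 33, and 1 to 45 over the alternatives. They split into 13 higher and 20 lower as reported. Scaling by the median gave 11 higher and 1 lower, by the 75th percentile over every probe 10 and 1, by quantiles 11 and 8, and leaving signals unscaled 15 and 0. At the first step they numbered 5, and 0 to 10. With the run of title numbers as a replicate block, 3, 1 and 0 members were called in the 3 contrasts, as without it. Of all 226 miRNAs, 40, 6 and 5 were called with that block. The slide row block is no separate check. No member was called between the hypertrophic and the prehypertrophic zone under any alternative run, where 1 to 5 of all tested miRNAs were. Without a filter on dim miRNAs, those at the floor on all arrays were still left out.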
